A study of Mus musculus with 2 samples.

Results

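The Hedgehog genes described here act upstream of the Gli transcription factors: the ligand gene Shh, the ligand-release gene Disp1, the receptor genes Ptch1 and Hhip, the co-receptor genes Cdon, Boc and Gas1, and the relay genes Smo and Sufu. They are 9 of the 23784 genes that could be named on the array, and were chosen by what their proteins do: every probe whose RefSeq accession belongs to 1 of them was used, 16 probes in all. 5 of the genes had several probes (Ptch1, Hhip, Disp1, Cdon and Sufu) and 4 had a single one. The cells were a murine glioblastoma stem cell line. It was set up by the neurosphere method from glioblastomas that a Sleeping Beauty transposon had induced in mice, and was kept in serum-free medium with B27, N2, EGF and bFGF. The control group was this line stably transduced with a lentiviral non-target shRNA, and the knockdown group was the same line stably transduced with a lentiviral Gli2 shRNA. Both groups thus carry a lentivirus and an shRNA, no untransduced cells are among the samples, and 1 line stands for the tumour type. The labels used here do not say whether the transduced lines are clones or pools, or how many cultures gave the RNA. Each group holds 1 array, so no difference has a replicate check and no p-value is given. The comparison asks how lowering Gli2 bears on gene expression in these cells.

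In Hedgehog signalling, Disp1 releases the lipid-modified ligand from the sending cell, and Cdon, Boc and Gas1 help it to bind Ptch1 on the receiving cell. Free Ptch1 holds back the membrane protein Smo; once ligand is bound, Smo acts in the primary cilium to loosen the hold of Sufu on the Gli proteins, which then enter the nucleus. Ptch1 and Hhip, which both bind ligand and dampen the signal, are textbook genes that Gli proteins induce, whereas Cdon, Boc and Gas1 are known to be held down by the pathway in neural tissue.

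The RefSeq promoter table of build GRCm38.p6 held windows for 7 of the 9 genes (Ptch1, Hhip, Smo, Sufu, Disp1, Cdon and Gas1), 8 windows in all, and the 250 bases before each start were searched on both strands. On these arrays the brighter Ptch1 probe differed from the Hhip probes, while the dimmer one did not beyond the spot errors. The windows of Ptch1 and Hhip are shown for that reason, and because both genes are known Gli targets. They lie at chr13:63565736-63565985 (Ptch1) and chr8:80058009-80058258 (Hhip), both on the minus strand, and read 5′ to 3′ toward the start of transcription. For Ptch1 this is an inner start, since another annotated transcript begins further upstream. Capitals mark the GC box GGGCGG or its complement CCGCCC:
Ptch1: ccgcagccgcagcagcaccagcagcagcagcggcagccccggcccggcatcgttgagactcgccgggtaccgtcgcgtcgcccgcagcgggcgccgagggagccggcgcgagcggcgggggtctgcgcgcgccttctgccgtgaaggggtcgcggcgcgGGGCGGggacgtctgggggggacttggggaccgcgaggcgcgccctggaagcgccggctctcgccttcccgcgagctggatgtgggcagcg
Hhip: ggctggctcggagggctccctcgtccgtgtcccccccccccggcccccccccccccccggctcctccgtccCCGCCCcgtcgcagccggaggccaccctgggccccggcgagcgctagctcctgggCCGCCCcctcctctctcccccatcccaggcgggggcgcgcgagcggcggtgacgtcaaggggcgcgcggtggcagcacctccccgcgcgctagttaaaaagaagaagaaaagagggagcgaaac

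Both windows are rich in G and C. The Ptch1 window was 78.4% G or C with 41 CpG pairs and the Hhip window 76.0% with 28, against medians of 52.4% and 6 over the 32851 windows in the table. The Ptch1 GC box began 91 bases before the start, and those of Hhip 179 and 124 bases before it. GC boxes were in the windows of 4 of the 7 genes (Ptch1, Hhip, Gas1 and Sufu), and 32.7% of all windows held at least 1. The consensus of Gli binding, GACCACCCA or its complement, was in none of the 8 windows, nor was a version with 1 mismatch. Of all windows, 0.225% held the exact consensus and 5.79% a version with at most 1 mismatch, so these letters are uncommon in such short windows.

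Signals below are the scanner software's background-subtracted processed intensities. The Gli2 shRNA array was the brighter of the pair, with its 75th percentile at 399 against 329 on the control array, so each log2 signal was set relative to its own array's 75th percentile before a difference was taken (Gli2 shRNA minus control, the scaled log2 difference). The ± value is the software's error of both spots carried over to that difference; it covers the spots and not the cultures. A probe is called measured where the software's flag put it well above background, as held on both arrays for 31114 of 56595 probes. Where signals are given in pairs, the control comes first. The targeted gene Gli2 was lower in the knockdown by its 1 probe, with signals of 98.1 and 57.9 and a scaled log2 difference of -1.04 ± 0.22. Of 8 neural stem and glioblastoma stem cell markers, 7 were measured on both arrays (-0.80 for Cd44 to 0.47 for Nes), and the eighth, Prom1, on the Gli2 shRNA array only. Markers of astrocytes (4 of 5), neurons (5 of 5) and oligodendrocytes (5 of 5) were measured on both arrays too, and the astrocyte marker Gfap on the control array only. The 4 astrocyte markers were all below 0, from -0.62 to -0.12, while the neuronal ones ran from -0.49 (Map2) to 0.74 (Tubb3) and the oligodendrocyte ones from -0.60 to 0.22. The summed signals of these lists, not scaled between arrays, were 166575 and 218044 (stem cells), 6979 and 7384 (astrocytes), 23099 and 21890 (neurons), and 728 and 905 (oligodendrocytes). They rest mostly on a few bright genes: Fabp7 (82583 and 91127) and Vim (63115 and 97436) among stem cell markers, Slc1a3 (6640 and 7053) and Map2 (18672 and 16146). The sums therefore do not follow the scaled differences of the other markers.

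Of the microglial, endothelial, and fibroblast and pericyte markers, 1 gene each was measured on both arrays, of 5, 4 and 4. These were Csf1r (390 and 432), Pecam1 (34.0 and 40.1) and Col1a2 (23.6 on the control array, with a scaled log2 difference of -0.19). The microglial Aif1 (17.5 and 5.64) and P2ry12 (19.1 and 6.46) and the fibroblast gene Col1a1 (16.0 and 15.1) passed the background flag in the control but not in the knockdown, at control signals near the lowest measurable one of 12.8. Cx3cr1, Ptprc, Cdh5, Cldn5, Tek, Pdgfrb and Dcn were above background on neither array. The summed signals, again not scaled between arrays, were 433 and 457, 50.4 and 58.1, and 49.3 and 49.5, the first of them mostly that of Csf1r. The part of these marker differences in the results was not tested. In bulk RNA, fewer cells that express a gene and less RNA per cell cannot be told apart.

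All 9 genes were detected, and 8 of them lay within 1.5-fold of their control level on their brightest probes. On their brightest probes, 7 genes were above 0 and 2, Ptch1 and Gas1, below it, where 50.3% of the 14563 named genes measured on both arrays were above 0. Without Ptch1 the scaled log2 differences ran from -0.16 (Gas1) to 0.26 (Boc). No member was past 2-fold, against 3.63% of measured genes, and only Ptch1 was past 1.5-fold, against 12.5%. The median of the 9 genes was 0.07, beside 0.003 over all measured genes. Of the measured genes past 2-fold, 50.8% were higher in the knockdown, a share that became 68.6% with median scaling, 69.4% with median pixel signals and 40.1% with normexp background correction.

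**Figure D1:**
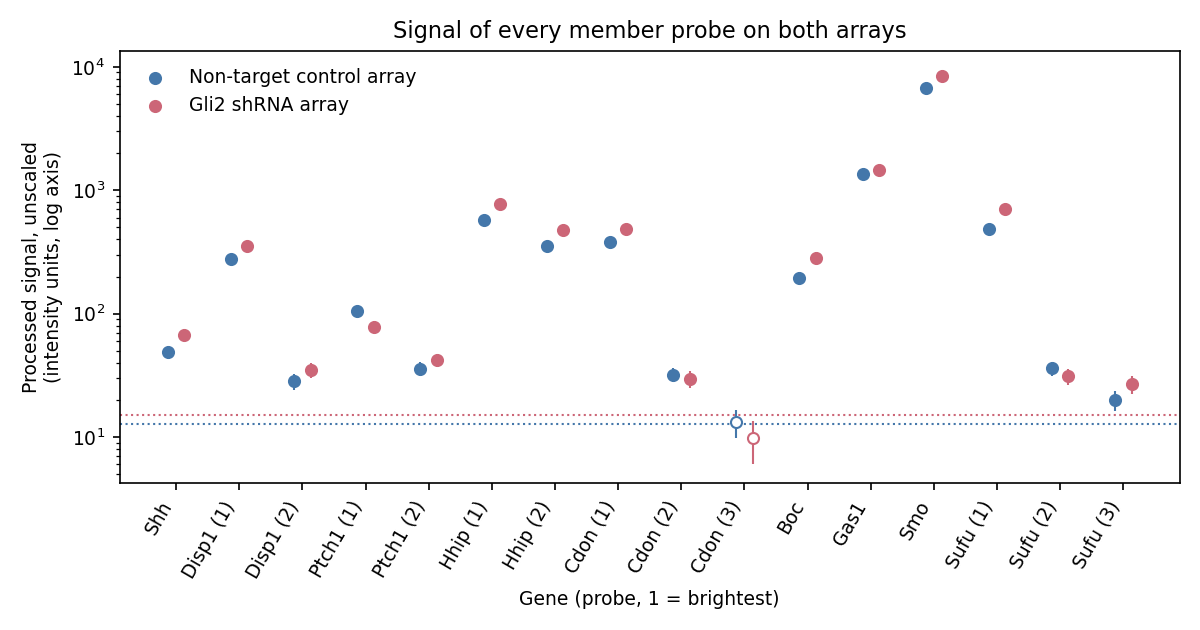
Processed signal (intensity units, log axis, not scaled between arrays) of the 16 probes of the 9 genes on the control array (blue) and the Gli2 shRNA array (red), with the software's spot error as bars and, as dotted lines, the lowest signal well above background on each array (12.8 and 15.2). The brighter Ptch1 probe is the highest-signal of the 3 measured probes that are dimmer on the Gli2 shRNA array; open circles mark the Cdon probe that is above background on neither array.

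Before any scaling, 12 of the 15 measured probes were brighter on the Gli2 shRNA array and 3 were dimmer, as were 20.0% of all measured probes. The 3 dimmer ones were the brighter Ptch1 probe and the second probes of Cdon and Sufu. Ptch1 was thus the only one of the 9 genes whose brightest probe lost signal on the Gli2 shRNA array. After scaling, 10 of the 15 measured probes were above 0, against 46.6% of all measured probes. None was past 2-fold, against 3.19% of all measured probes.

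The ligand gene Shh was detected at a low level on both arrays. Its 1 probe (NM_009170, chromosome 5) gave 48.9 and 67.8, above the lowest measurable signals of 12.8 and 15.2. The scaled log2 difference was 0.19 ± 0.24, less than the spot error, and 25.7% of measured genes had a higher one. Of the other ligand genes, Ihh was also near the floor, at 26.3 and 29.9 (-0.09 ± 0.31), and Dhh was above background on neither array (5.68 and 10.3).

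Disp1, the transporter-like protein that frees the ligand from the sending cell, was alike on both arrays by both of its probes (NM_026866, chromosome 1). The brighter probe read 275 and 350, and the dimmer one 28.3 and 34.8. Scaled, these became 0.07 ± 0.20 and 0.02 ± 0.29. The probes differed from each other by 0.05 ± 0.35, a closer match than in most genes: 17.6% of the 5415 genes with several measured probes had a smaller range between probes.

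The receptor gene Ptch1, which is both the brake on Smo and a read-out of Gli activity, was the one member past 1.5-fold. It reached this size, as 12.5% of measured genes did, on 1 of its probes (both NM_008957, chromosome 13). The brighter probe read 105 in the control and 78.6 in the knockdown. After scaling it was 1.62-fold lower (log2 difference -0.69 ± 0.22). The dimmer probe read 35.8 and 42.1, a difference of -0.04 ± 0.26. The brighter probe is thus lower by more than its spot error, while the dimmer one is not.

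The brighter Ptch1 probe was placed low among genes but not outside the usual spread at its brightness. 4.66% of measured genes had a lower difference. Among the 7680 measured probes with a geometric mean signal from 50 to 200, 7.36% were 1.5-fold or more lower, and the central 95% ran from -0.94 to 1.03. The Ptch1 probes differed from each other by -0.65 ± 0.34 (interval of 2 spot errors either side, -1.34 to 0.036), and 91.0% of genes with several measured probes had a smaller range. Among the 1320 genes whose dimmest measured probe was under a signal of 50, as for Ptch1, 34.1% had probes that differed by more than 0.5.

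Pixel values behind the brighter Ptch1 probe show how much of its signal lay near background. The median spot intensity was 131 over a local background of 45 in the control, and 114 over 35 in the knockdown. Local background was higher on the control array for the probes of all members, from 35 to 45 against 29 to 35. With the plain median signal minus local background, the scaled difference of this probe was -0.43. With normexp it was -0.37 and with median scaling -0.56, so in these 3 settings it was not past 1.5-fold. It was below 0 in all 8 settings and past 1.5-fold in 4 besides the one reported. The authors' values, the percentile over measured probes and median scaling only shift all probes by a constant, so they give no separate reading of a probe. The dimmer probe was below 0 in 4 of the 8 settings, and its direction is not settled.

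**Figure D2:**
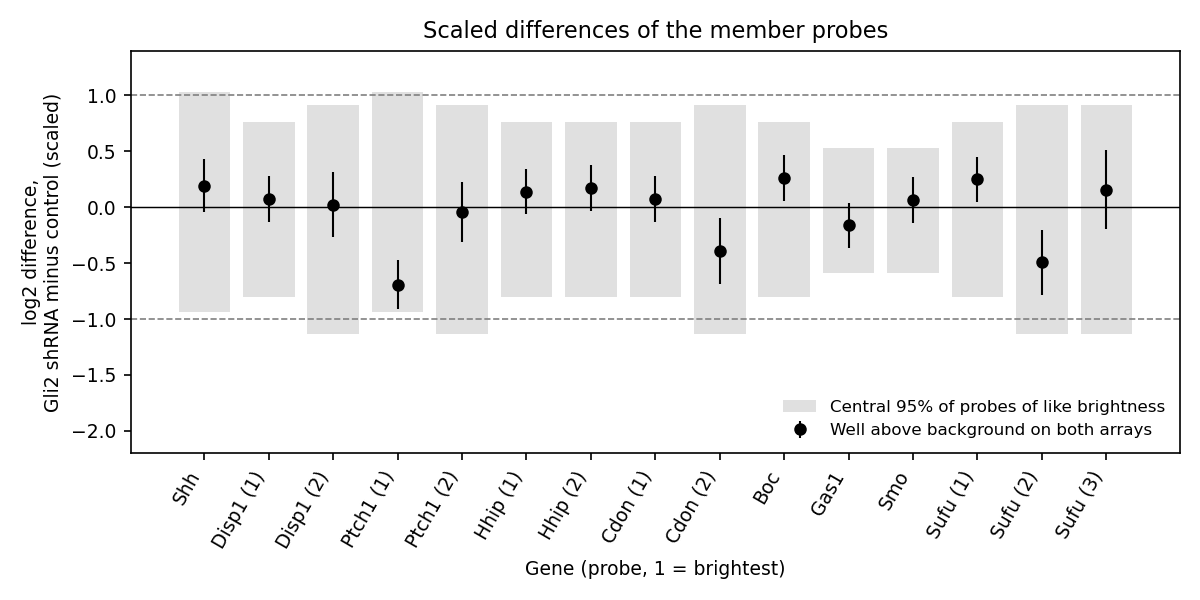
Scaled log2 difference (Gli2 shRNA minus control) of the 15 measured probes, with the software's spot error as bars, over grey boxes that span the central 95% of all measured probes in the same range of signal (under 50, 50 to 200, 200 to 1000, and above). The brighter Ptch1 probe, at -0.69, is the lowest of the 15 and lies inside its box; dashed lines mark 2-fold.

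Hhip, the membrane-anchored protein that soaks up ligand, lay slightly above its control level. Its brighter probe (both NM_020259, chromosome 8) read 575 and 767, and its other probe 351 and 478. Scaled, the differences were 0.14 ± 0.20 and 0.17 ± 0.20, each within the spot error, and the probes differed from each other by 0.03. Hhip was above 0 by both probes in all 8 settings, from 0.11 to 0.31.

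Set against each other on the same pair of arrays, where scaling cancels, Hhip and Ptch1 differed on the brightest probes. Hhip minus Ptch1 was 0.83 ± 0.30, with an interval of 0.23 to 1.43 from the spot errors alone. Against the dimmer Ptch1 probe it was 0.18 ± 0.33, with an interval of -0.49 to 0.85. The contrast of these Gli-induced receptors therefore turns on which Ptch1 probe is read.

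Of the co-receptors, Cdon and Boc are related immunoglobulin and fibronectin domain proteins, and Gas1 is a lipid-anchored surface protein. Boc (NM_172506, chromosome 16) read 196 and 285. Its scaled log2 difference of 0.26 ± 0.21 was the highest of the brightest probes of the 9 genes and was above 0 in all 8 settings, from 0.17 to 0.40. 19.8% of measured genes lay higher still.

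Cdon (NM_021339, chromosome 9) was at its control level by its brightest probe, with 382 and 486 and a scaled difference of 0.07 ± 0.20. Its second probe read 32.1 and 29.6, a difference of -0.39 ± 0.29. The brightest minus the second probe was 0.46 ± 0.36, with an interval of -0.25 to 1.18. The third read 13.3 and 9.85 and was above background on neither array, so it gives no fold. On the brightest probes Boc minus Cdon was 0.19 ± 0.29, with an interval of -0.39 to 0.77. Against the second Cdon probe it was 0.65 ± 0.36, with an interval of -0.064 to 1.37. Both intervals hold 0, so these arrays do not separate the paralogs.

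Gas1 (NM_008086, chromosome 13) gave 1346 and 1457. Its scaled log2 difference was -0.16 ± 0.20, within the spot error, and it stayed below 0 in all 8 settings, from -0.19 to -0.03. None of the 3 co-receptors was past 1.5-fold on a measured probe.

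Smo, the signal transducer, was measured by 1 probe (NM_176996, chromosome 6) that read 6696 and 8495. The scaled difference was 0.07 ± 0.20, and 41.2% of measured genes lay higher. At this brightness the central 95% of 9611 probes ran from -0.59 to 0.53, a narrower range than at the brightness of Ptch1. Brighter Ptch1 minus Smo was -0.76 ± 0.30, with an interval of -1.36 to -0.16. The dimmer Ptch1 probe minus Smo was -0.11 ± 0.33, with an interval of -0.78 to 0.56.

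Sufu, the cytoplasmic tether of the Gli proteins, had 3 measured probes (NM_015752, chromosome 19) that did not go one way. The brightest read 488 and 703, a scaled difference of 0.25 ± 0.20, above 0 in all 8 settings (0.22 to 0.38). The second read 36.0 and 31.0 (-0.49 ± 0.29), and the third 19.8 and 26.8 (0.16 ± 0.35). The brightest minus the second probe was 0.74 ± 0.35, with an interval of 0.032 to 1.45, and 93.2% of genes with several measured probes had a smaller range. Ranges are wider where a probe is dim. A range over 0.5 was found in 34.1% of genes whose dimmest measured probe was under a signal of 50, as for Sufu. Over all genes with several measured probes the share was 14.6%. The Sufu probes other than the brightest lie near the floor, so the direction of Sufu rests on a single probe.

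**Figure D3:**
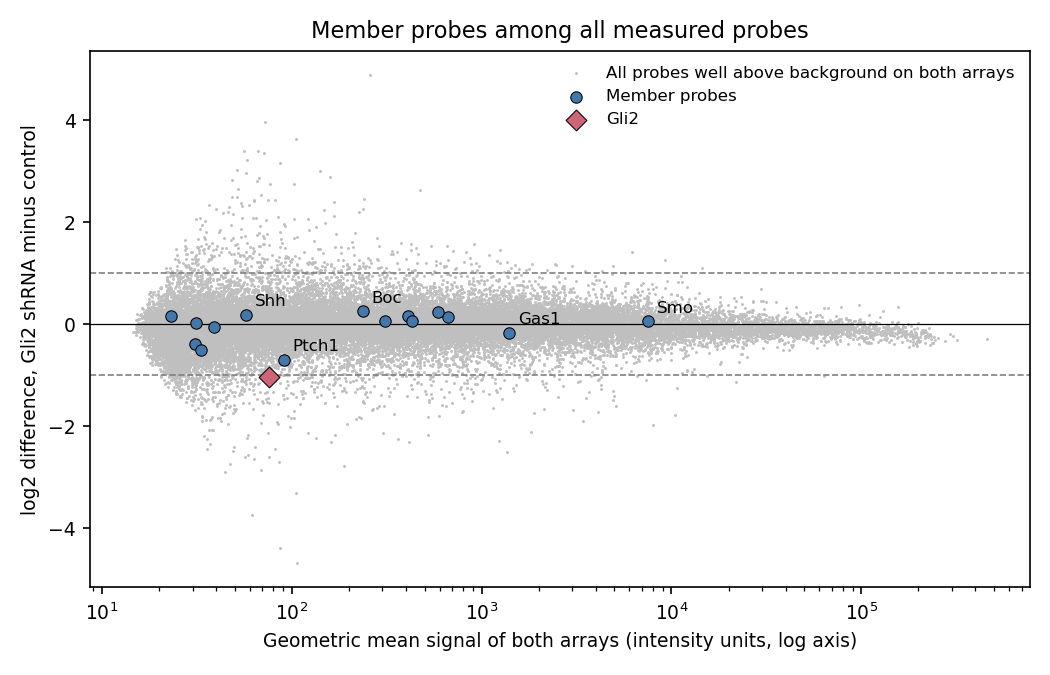
Scaled log2 difference against the geometric mean signal of both arrays (intensity units, log axis) for all 31114 probes measured on both arrays (grey), the 15 measured member probes (blue, some named) and Gli2 (red diamond). The member probes sit within the cloud, and Gli2, at -1.04, and the brighter Ptch1 probe, at -0.69, lie in its lower part at low signal.

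Across the 15 measured probes, those with signals above 200 lay in a narrower range than the dimmer ones. The 2 probes above 1000, those of Gas1 and Smo, were at -0.16 and 0.07. The 2 probes from 50 to 200, the brighter one of Ptch1 and that of Shh, were at -0.69 and 0.19. The 6 probes with signals between 200 and 1000, the brightest of Boc, Cdon, Disp1 and Sufu and both of Hhip, all lay between 0.07 and 0.26. The 5 probes under 50, the dimmer ones of Ptch1, Disp1, Cdon and Sufu, ran from -0.49 to 0.16. The SD of the difference over all measured probes was 0.38 from 200 to 1000 and 0.50 under 50. Taken over all probes, 5 of the 15 differences were larger than their spot error and 1, that of the brighter Ptch1 probe, was beyond 2 errors, against 44.4% and 17.9% of all measured probes.

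**Figure D4:**
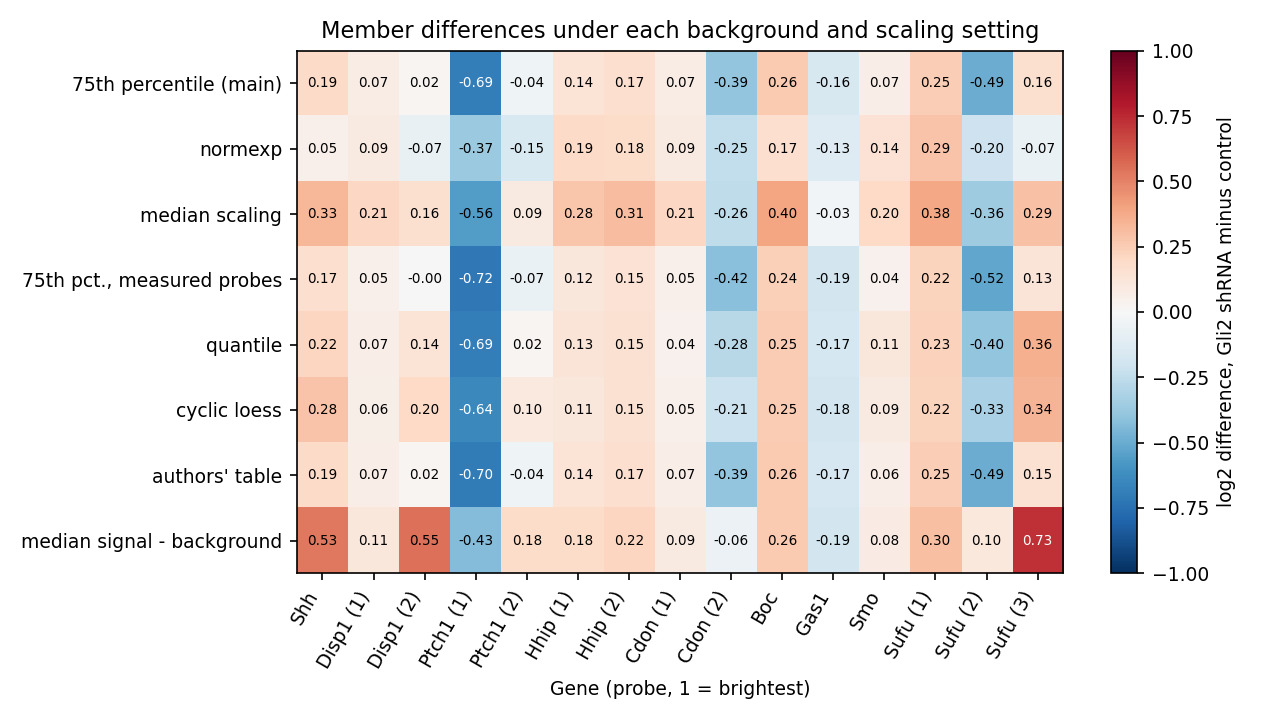
Log2 difference (Gli2 shRNA minus control) of the 15 measured probes under 8 choices of background correction and scaling, coloured from -1 (blue) to 1 (red). The brightest probe of every gene keeps its sign in all rows, while dim probes such as the second of Ptch1 (-0.15 to 0.18) and the third of Sufu (-0.07 to 0.73) cross 0.

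The rest of the Hedgehog pathway was read from a list of 42 further genes, of which 37 were measured on both arrays. 16 lay above 0 and 21 below, with 3 higher and 5 lower by 1.5-fold or more, against 6.0% and 6.54% of all measured genes. The list median was -0.09, which became 0.05 with median scaling, so the list has no settled direction. Of the 37, Gli2 alone was past 2-fold. Outside these counts, 2 ligand-release genes were measured on the Gli2 shRNA array only: Scube3 (3.10 and 25.3) and Disp2 (10.5 and 26.8). The remaining 3 were above background on neither array.

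Among ligand receptors and co-receptors outside the 9 genes, the glypicans Gpc4 and Gpc3, heparan sulfate proteins of the cell surface, were below 0, at -0.71 ± 0.20 (914 and 675) and -0.64 ± 0.24 (60.3 and 46.9). All 3 Gpc4 probes were below 0, from -0.71 to -0.51.

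Of 9 genes for ciliary entry and Smo partners, Evc and Evc2, which form a complex with Smo at the ciliary base, were both higher. Evc read 34.2 and 77.9 (0.91 ± 0.25), and Evc2 1028 and 1911 (0.62 ± 0.20). The second Evc probe was at 0.54 ± 0.40 (13.8 and 24.3), and the second Evc2 probe at 0.996 ± 0.28 (23.3 and 56.2). Apart from the brighter Evc2 probe, these probes lie near the floor in the control. Evc and Evc2 are neighbours on chromosome 5, with 0 protein-coding genes between them. With normexp the Evc difference was 0.30. Grk2, a kinase that acts on Smo, was at -0.66 ± 0.20 (brighter probe) and -0.29 ± 0.23 (dimmer probe).

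Of the genes downstream, Csnk1e, a casein kinase, was at 0.65 ± 0.20 on its brightest probe, at 0.62 on another and at -0.26 on the third, and Kif7, the ciliary kinesin of the pathway, at 0.17 ± 0.21. Gli3 was at -0.60 ± 0.20 and Gli1 at -0.32 ± 0.21. A list of 22 further Gli target genes, Gli1 among them, had 17 members measured on both arrays. Of these, 7 lay above and 10 below 0, where 50.3% of all measured genes were above 0. The list median was -0.22 (-0.09 with median scaling), beside 0.003 over all measured genes. Past 1.5-fold were 2 genes above 0 and 2 below it, against 6.0% and 6.54% of all measured genes. Above 0 these were Jag2 (1.68 ± 0.36) and Foxf1 (0.82 ± 0.21), and below it Abcg2 (-0.67 ± 0.20) and Prdm1 (-0.62 ± 0.20). Jag2 has 1 probe (16.1 and 62.9), and its control signal was near the lowest measurable one of 12.8.

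**Figure D5:**
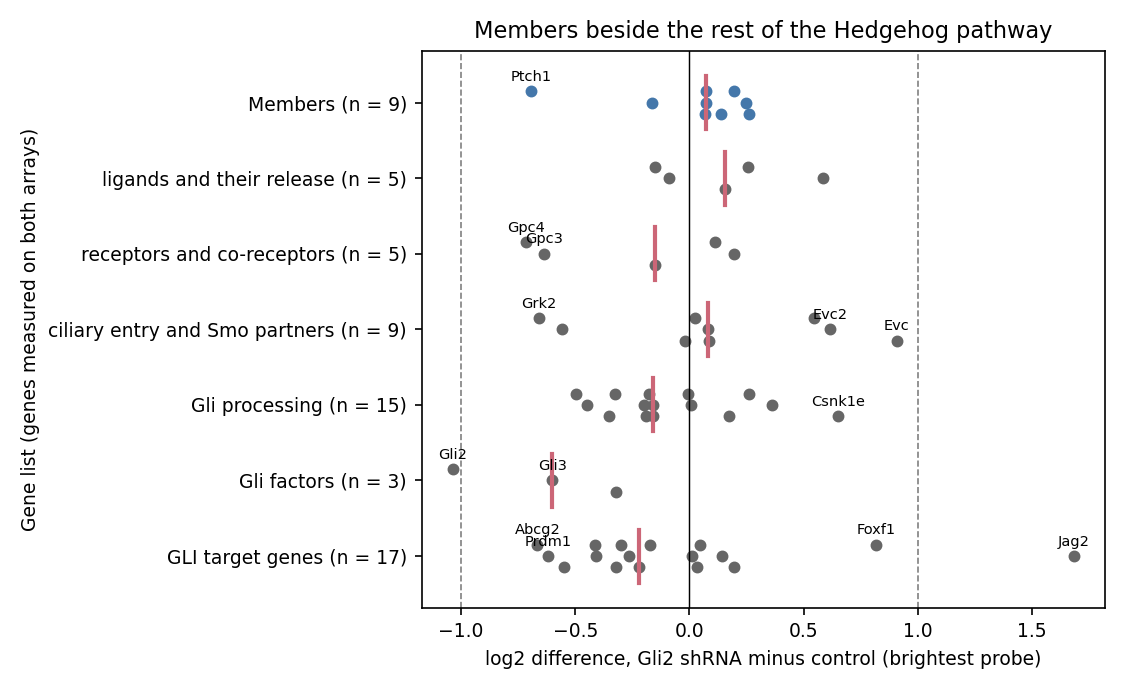
Scaled log2 difference (brightest probe) of the 9 member genes (blue) and of the measured genes in the lists of other pathway parts and Gli targets (grey), 1 point per gene, with the list median as a red bar and names for genes past 1.5-fold. 8 of the members lie between -0.16 and 0.26, and Ptch1 stands at -0.69; dashed lines mark 2-fold.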

How the data were processed

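1 control and 1 Gli2 shRNA RNA sample were labelled with Cy3 and hybridised to 1-colour Agilent arrays on 1 slide, per the labels and file headers. Per the file headers, intensity values were made with Agilent Feature Extraction 12.1.0.3 (protocol GE1_1200_Jun14, grid build mm9). The authors' deposited table holds log2 values; each column equalled the log2 processed signal minus a constant (8.36 for the control, 8.64 for the Gli2 shRNA array), with medians of -3.55 and -3.69, and the authors' centring is unstated beyond that. Here outlier spots (126 and 120) were left out, spots of a probe were averaged on the log2 scale, and each array's 75th percentile was subtracted. No spot was saturated. Probes were named through RefSeq accessions and the GRCm38.p6 gene table (34560 probes matched 1 gene); a gene is represented by its brightest probe. With 1 array per group the number of arrays limits precision and no test was run; calls are by size (2-fold, and 1.5-fold as a second size). Other 300 probes with 10 spots had a median spot SD of 0.040 and 0.039 (log2). limma 3.58.1 gave normexp (offset 50), quantile and cyclic loess alternatives; median scaling, a percentile over measured probes, the authors' table, median pixel signals and means of probes were also tried. The calculation was checked on simulated data. The members and lists were chosen with earlier results of these data known. Other genes named are those of the fixed lists past 1.5-fold, plus Gli1, Gli3, Ihh, Dhh, Evc and Kif7; 1 gene that the rule names is not reported here.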

Additional observations from a re-analysis of the deposited data

How the results depend on the processing

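No paired analysis was possible because each group holds 1 array. Of 209 values recomputed under alternatives, 181 stayed within 1 spot error of the difference (0.1 for list medians, 1.5 times for counts). The other 28 moved by more. A change of sign was tallied only for genes past 2-fold. Among the genes recomputed that was Gli2 alone, which stayed below 0, and smaller differences that crossed 0 were not tallied as changes of sign. Normexp used the median signal, since a mean signal was not used here. Ptch1 was -0.37 with normexp, -0.43 with median pixel signals and -0.37 as the mean of its probes. As means of probes Sufu was -0.029 and Cdon -0.16, both across 0 from the brightest probe. Shh was 0.53 with median pixel signals, and Gli2 -0.64 with normexp. The number of members past 1.5-fold was 0 with normexp, median scaling and median pixel signals, and that of member probes below 0 was 3 with median pixel signals. Over all probes, 437 were higher and 554 lower by 2-fold: 97 and 152 with normexp, 884 and 363 with median pixel signals, and 1695 and 5220 with dim probes let in. At 1.5-fold, 1509 were higher and 2214 lower: 596 and 794 with normexp, 2446 and 1426 with median scaling, 2871 and 1446 with median pixel signals, and 3749 and 9711 with dim probes. With median scaling, which raised the median of all genes by 0.14, the pathway list median was 0.047 and the Gli target median -0.085. The causes were not tested. Probes near background limit what can be read of Shh, the dimmer Ptch1 probe and the dimmer Sufu probes.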
